A study of Mus musculus with 10 samples.

Results

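The 9 genes described here were grouped under the name of prostate luminal secretory product genes: Pbsn, Sbp, Msmb, Tgm4, Defb50, Azgp1, Crisp1, Ceacam10 and 9530002B09Rik. They are 9 of the 48897 rows of each expression table and were found by their symbols. The name is that of the group. Whether each product came from the prostate or from a neighbouring gland was not tested. Crisp1 is best known from the epididymis, and 9530002B09Rik has no functional name. The set was chosen on measured values, because its members were known to be low in the epithelium libraries labelled Arid1a KO. Their levels and fold changes between the groups are therefore given as a description, with no test, and only genes outside the set were tested.

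RNA-seq was performed on 10 mouse libraries in 4 groups. EpCAM+ CD45- prostate epithelium was isolated by sorting from male C57BL/6 mice at 3 months of age, in 3 control libraries (A, B and C), where Arid1a is not labelled as deleted, and 3 Arid1a KO libraries, labelled Arid1aPC-/-. All 6 mice, controls included, carried the same further deletion in the prostate, and no wild-type prostate was included. The deletions were driven by Cre under a probasin promoter, and probasin is the product of Pbsn, a member of the set. The other 4 libraries came from Myc-CaP, a prostate cancer line from a c-Myc transgenic FVB mouse, with 2 empty vector (EV) libraries and 2 labelled Arid1a KO. The labels do not say whether the knockout libraries are 1 clone or several, and growth in culture is read from the cell line named as their source. Epithelium values are RPKM (reads relative to gene length and library size) and Myc-CaP values are TPM (reads relative to gene length, brought to a fixed sum), and the 2 tables were normalized separately.

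The Arid1a transcript did not separate the epithelium groups in the direction of the labels. It measured 27.8, 21.9 and 26.5 RPKM in the control group (A, B, C) and 31.1, 28.8 and 30.8 RPKM in the libraries labelled Arid1a KO, a log2 fold change of 0.25 ± 0.09 (SE, limma with Benjamini-Hochberg adjusted p = 0.0540). The tables hold a single value per gene, so the loss of an exon would not be seen. In Myc-CaP cells, Arid1a was lower in the knockout, at 39.5 and 40.3 TPM against 60.5 and 61.0 TPM with EV. Directions in the epithelium below therefore compare libraries by their labels.

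Luminal cells line the prostatic ducts and secrete proteins into the seminal fluid, where they bind ligands, defend against microbes, coat sperm and form the copulatory plug. The cells load these proteins into the endoplasmic reticulum and Golgi apparatus, and many of their genes depend on androgen. Probasin is the classic androgen-regulated protein of the rodent prostate, and its promoter is widely used to direct transgenes to this organ. Androgen response elements in DNA are built from pairs of short hexamers.

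The sequences upstream of the RefSeq start sites are shown here because the members were low in the same libraries. The promoter table (RefSeq, GRCm38.p6) matched 7 of the 9 members with 10 entries, and it held none for Msmb and Defb50. The hexamer AGAACA, or TGTTCT on the other strand, lay within 250 bases upstream of the start in 4 of those 7 genes (Pbsn, Sbp, Ceacam10 and 9530002B09Rik) and in 5 of the 10 entries, against 16.1% of all 32851 entries. The TATA box letters TATAAA, searched on both strands, were found in 3 of the 7 genes (Pbsn, Tgm4 and Crisp1) and in 3 of the 10 entries, against 12.4% of all entries. The FOXA letters TGTTTAC were found in 0 of the 7 genes and in 3.17% of all entries. A pair of hexamers facing each other across a gap of 3 bases was found in 0 of the 7 genes and in 0.00913% of all entries. The RefSeq and GENCODE starts differ. By the GENCODE M21 spans given below, the Pbsn hexamer and TATA letters lie inside the annotated gene, and the Sbp entry that holds the hexamer lies almost wholly inside Sbp. These are matches of letters, not binding sites, and the 10 entries include 3 for Sbp and 2 for Ceacam10 that share sequence. The 4 sequences below run 5′ to 3′ and end at the base before the start, with hexamers and TATA boxes in capitals.
Pbsn (chrX:77853501-77853750, minus strand): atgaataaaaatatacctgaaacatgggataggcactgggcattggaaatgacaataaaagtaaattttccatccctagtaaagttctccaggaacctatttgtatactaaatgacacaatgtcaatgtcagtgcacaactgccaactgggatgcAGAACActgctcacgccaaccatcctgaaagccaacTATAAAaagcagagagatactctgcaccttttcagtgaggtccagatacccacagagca
9530002B09Rik (chr4:122689009-122689258, plus strand): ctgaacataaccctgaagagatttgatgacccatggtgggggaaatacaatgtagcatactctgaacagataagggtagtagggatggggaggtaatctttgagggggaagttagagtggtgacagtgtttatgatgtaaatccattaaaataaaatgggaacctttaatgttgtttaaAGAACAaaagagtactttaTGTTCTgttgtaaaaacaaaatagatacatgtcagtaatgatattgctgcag
Ceacam10 (chr7:24776917-24777166, plus strand): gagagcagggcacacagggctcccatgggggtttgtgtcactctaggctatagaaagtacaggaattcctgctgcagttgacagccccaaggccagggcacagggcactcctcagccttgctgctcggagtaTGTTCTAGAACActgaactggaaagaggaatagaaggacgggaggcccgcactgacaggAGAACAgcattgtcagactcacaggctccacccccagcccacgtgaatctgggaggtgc
Tgm4 (chr9:123034491-123034740, plus strand): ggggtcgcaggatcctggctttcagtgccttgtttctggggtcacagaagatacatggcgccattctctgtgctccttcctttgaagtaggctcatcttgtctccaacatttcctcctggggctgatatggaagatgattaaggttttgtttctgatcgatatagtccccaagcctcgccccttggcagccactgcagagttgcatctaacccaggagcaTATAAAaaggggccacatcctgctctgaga

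In Pbsn the hexamer began 95 bases before the start and the TATA letters 59 bases before it. In 9530002B09Rik a hexamer on each strand began 71 and 52 bases before the start. Ceacam10 held 3 hexamers, of which those beginning 118 and 112 bases before the start adjoin each other and the other began 59 bases before it. Tgm4 held no hexamer, and its TATA letters began 30 bases before the start.

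All 9 genes were lower in every epithelium library labelled Arid1a KO than in every control library, against 34.4% of the 16275 tested genes for which the same held. That separation is what the genes were chosen for. The control mean exceeded the Arid1a KO mean by 5.77-fold (Azgp1) to 122-fold (Sbp), with a median of 35.1-fold. On the log2(RPKM + 1) scale, where changes of weakly expressed genes come out too small, the members' median difference was -4.39 beside -0.03 over all tested genes. Among all tested genes, ordered from the largest fall, the members lay between the 5th (Sbp) and the 110th place (Azgp1). All 9 passed the filter of a mean of 0.5 RPKM over the 6 libraries, but Msmb and Crisp1 had Arid1a KO means under that limit and passed through the control libraries. The members' combined share of all RPKM was 0.272%, 0.263% and 0.314% in the control group and 0.00598%, 0.00677% and 0.0166% in the libraries labelled Arid1a KO. In bulk RNA, fewer luminal secretory cells and less secretory RNA per cell cannot be told apart.

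**Figure D1:**
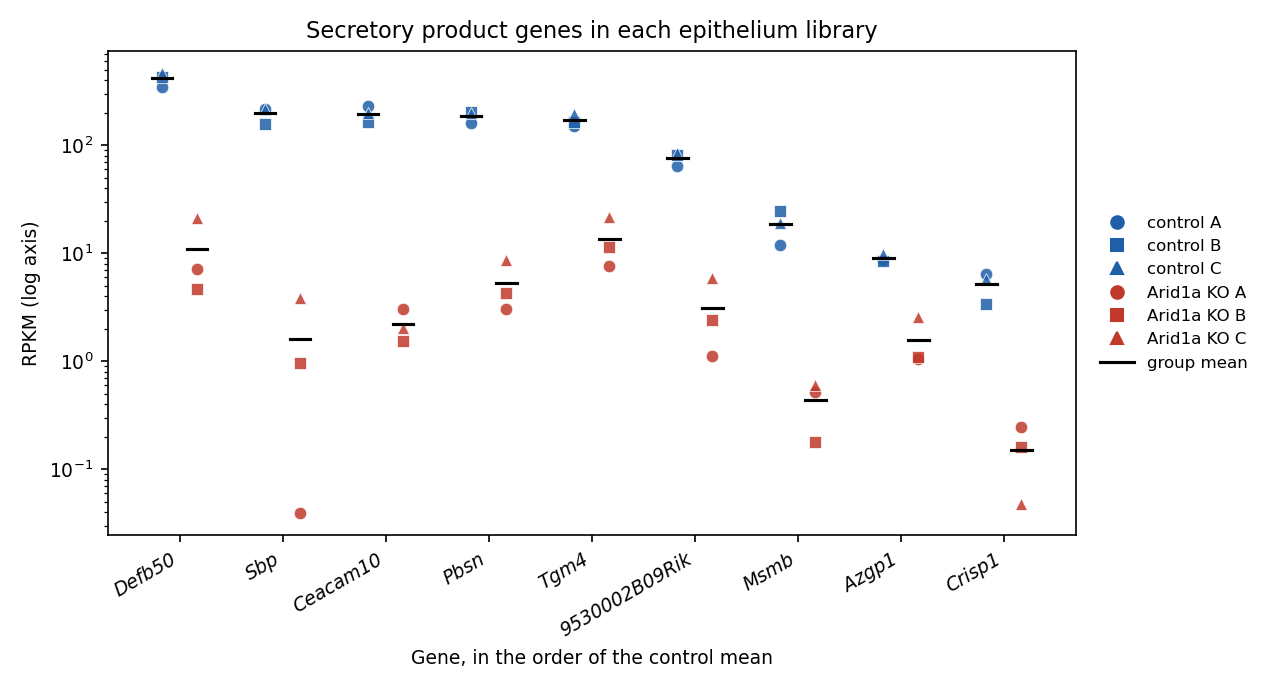
RPKM of each of the 9 genes (log axis) in the 3 control libraries (blue) and the 3 labelled Arid1a KO (red), with the library shown by the marker and the group mean by a black bar. The groups do not overlap for any gene, the control values of a gene lie close together, and the Arid1a KO values spread widely, most for Sbp.

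Among the binding and carrier proteins, Pbsn (chromosome X, 77837901 to 77853623, minus strand, GRCm38) encodes probasin, a secreted lipocalin. It measured 160, 203 and 198 RPKM in the control group (A, B, C) and 3.07, 4.29 and 8.66 RPKM in the libraries labelled Arid1a KO, so the Arid1a KO mean was 2.85% of the control mean. Its log2 fold change was -4.98 ± 0.29 (SE, n = 3 per group).

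Sbp (chromosome 17, 23941672 to 23945607, plus strand) encodes spermine-binding protein, a product of the ventral prostate that binds polyamines. It measured 218, 159 and 217 RPKM in the control libraries and 0.0392, 0.960 and 3.89 RPKM in those labelled Arid1a KO. Its log2 fold change of -6.52 ± 0.49 (SE) was the largest in size of the 9, and its Arid1a KO libraries differed most, by 99.4-fold between C and A. The value in library A corresponded to about 1.75 reads, estimated from the depth and the annotated exon length, so that end of the range is poorly measured.

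Msmb (chromosome 14, 32142023 to 32158370, plus strand) encodes beta-microseminoprotein, an abundant small protein of seminal fluid. It measured 12.0, 24.7 and 19.2 RPKM in the control libraries and 0.526, 0.179 and 0.602 RPKM in those labelled Arid1a KO. Its log2 fold change was -3.73 ± 0.24 (SE), and its control libraries differed 2.06-fold, the widest control range of the 9. The 3 Arid1a KO values corresponded to about 9.43, 3.14 and 10.2 reads. The gene model overlaps Gm18909 on the other strand, and the study counted reads by strand.

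Azgp1 (chromosome 5, 137981520 to 137990233, plus strand) encodes zinc-alpha-2-glycoprotein, a secreted protein with a fold like that of MHC class I. It differed least between the groups, from 8.78, 8.44 and 9.95 RPKM to 1.05, 1.10 and 2.56 RPKM, a log2 fold change of -2.02 ± 0.21 (SE). The lowest control library was 3.29-fold above the highest Arid1a KO library, the smallest such gap of the set.

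Tgm4 (chromosome 9, 123034726 to 123067561, plus strand) encodes the prostate transglutaminase, which cross-links seminal vesicle proteins into the copulatory plug. It measured 153, 166 and 194 RPKM in the control libraries and 7.67, 11.6 and 22.0 RPKM in those labelled Arid1a KO. It kept 8.03% of the control mean, more than any other member except Azgp1, and its log2 fold change was -3.66 ± 0.31 (SE). The annotated span overlaps Gm49323 on the same strand and Zdhhc3 on the other, so part of its reads may be uncertain. Zdhhc3 itself was lower, at 8.89 ± 0.77 against 19.4 ± 1.95 RPKM (SD, n = 3).

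Defb50 (chromosome 8, 21823539 to 21831296, plus strand) encodes a beta-defensin, of a family of small cationic antimicrobial peptides. It had the highest level of the 9 per length, at 350, 432 and 471 RPKM in the control libraries, and 7.22, 4.68 and 21.3 RPKM in those labelled Arid1a KO. Its log2 fold change was -5.36 ± 0.44 (SE). Library C was 4.56-fold above library B among the Arid1a KO libraries, while the control libraries differed 1.35-fold.

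Ceacam10 (chromosome 7, 24777206 to 24784657, plus strand) encodes a secreted member of the carcinoembryonic antigen family that is found in seminal fluid. It measured 230, 164 and 199 RPKM in the control libraries and 3.05, 1.54 and 2.04 RPKM in those labelled Arid1a KO, a log2 fold change of -5.96 ± 0.18 (SE). The gap between its groups was the widest of the 9, since the lowest control library was 53.9-fold above the highest Arid1a KO library.

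Crisp1 (chromosome 17, 40293758 to 40319207, minus strand) encodes a cysteine-rich secretory protein best known from the epididymis, where it coats sperm. It was the lowest member, at 6.49, 3.41 and 5.81 RPKM in the control libraries and 0.249, 0.162 and 0.0478 RPKM in those labelled Arid1a KO, the latter about 10.7, 6.83 and 1.95 reads. Its log2 fold change was -2.40 ± 0.19 (SE), although the ratio of its means was 34.3-fold. The epididymis marker genes, 10 in number, were below the filter in the epithelium. Of these, 7 were listed at 0 in all 6 libraries, and their summed level was 0.0660 to 0.291 RPKM in the control libraries and 0 to 0.0611 RPKM in those labelled Arid1a KO.

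9530002B09Rik (chromosome 4, 122689275 to 122705129, plus strand) is a protein-coding gene without a functional name. It measured 64.0, 81.5 and 85.4 RPKM in the control libraries and 1.11, 2.44 and 5.89 RPKM in those labelled Arid1a KO, a log2 fold change of -4.39 ± 0.38 (SE).

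The order of the levels, which RPKM allows because it is scaled by length, also differed between the groups. In the control libraries Defb50 was first with a mean of 418 RPKM, and its range did not overlap that of Sbp, the next. Sbp (198), Ceacam10 (198), Pbsn (187) and Tgm4 (171 RPKM) followed with ranges that overlapped between neighbours, and then 9530002B09Rik (77.0), Msmb (18.6), Azgp1 (9.06) and Crisp1 (5.24 RPKM), each apart from the gene before it. In the libraries labelled Arid1a KO, Tgm4 (13.7) and Defb50 (11.1 RPKM) led, and all neighbours in the order overlapped except Azgp1 and Msmb.

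The Arid1a KO libraries differed from each other in these genes more than the control libraries did. Between the highest and the lowest library, the 9 genes spread 1.98-fold (Ceacam10) to 99.4-fold (Sbp) in the Arid1a KO group and 1.18-fold (Azgp1) to 2.06-fold (Msmb) in the control group. The spread of Sbp rests on about 1.75 reads in library A. The Arid1a KO values of Msmb and Crisp1 rest on about 1.95 to 10.7 reads, so their spread and order are poorly measured. Library C was the highest of the 3 for 7 of the 9 genes, and library A for the other 2, Crisp1 and Ceacam10. For Msmb, libraries A and C were nearly level, at 0.526 and 0.602 RPKM. The share of all tested genes that were highest in library C was not counted. Other listed genes were not alike in which library was highest. Of 11 other prostate secretory genes, 6 were highest in library C, 4 in library A and 1 in library B of the Arid1a KO group. For 21 androgen response genes these numbers were 12, 8 and 1. Spink1, a secreted protease inhibitor, measured 1.32, 9.86 and 16.0 RPKM in libraries A, B and C labelled Arid1a KO. Spinkl, a related inhibitor, was highest in library A, like the seminal vesicle genes described below, at 1.29, 0.106 and 0.109 RPKM.

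The same libraries differed in markers of other cells. All 9 seminal vesicle genes were highest in library A of the Arid1a KO group, as were Crisp1 and Ceacam10. All 6 luminal, all 5 urothelium and all 5 B and plasma cell markers were highest in library C. The difference was small for some, as for Krt8 at 871, 869 and 886 RPKM in libraries A, B and C. Of the secretory pathway genes, 16 of 24 were highest in library A, as were 4 of 6 fibroblast genes. How often any tested gene was highest in each library was not counted, so none of these numbers can be set against a share of all genes. Without Arid1a KO library C the members' median log2 fold change was -4.84, and without library A it was -3.99. The part of these cell type differences in the members' levels was not tested.

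**Figure D2:**
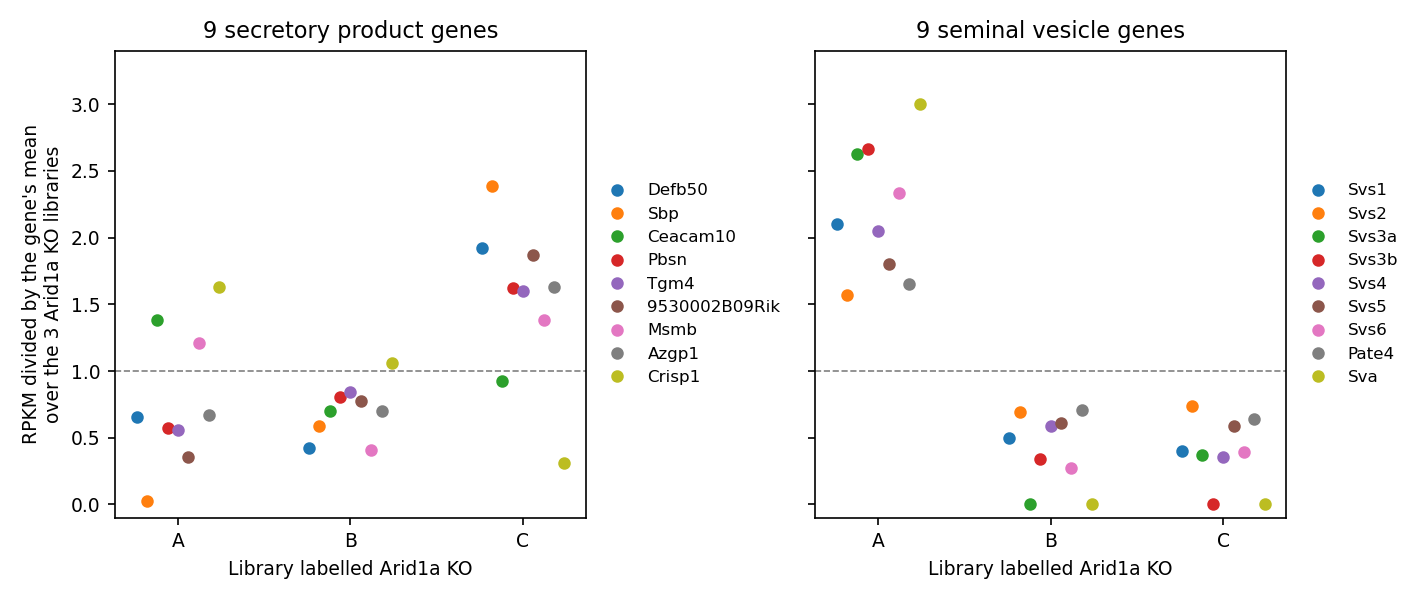
RPKM of each gene divided by its mean over the 3 Arid1a KO libraries, for the 9 secretory product genes (left) and the 9 seminal vesicle genes (right), with 1 point per gene and library and a dashed line at the gene's mean. Library C is the highest for 7 of the 9 secretory product genes, while library A is the highest for all 9 seminal vesicle genes.

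The seminal vesicle is the gland next to the prostate, and transcripts of genes used here as its markers were abundant in the sorted control epithelium. Its 9 marker genes summed to between 19512 and 22032 RPKM in the control libraries, 4.12% to 4.94% of all RPKM, and to between 647 and 1632 RPKM in those labelled Arid1a KO. All 9 passed the test as lower, where 29.6% of all tested genes were called lower and 27.5% higher (57.1% in all), and 0 of the 9 were at 0 in every library. Of the 9, 4 (Svs1, Svs3a, Svs3b and Sva) passed the filter only through the control libraries, so their direction was largely fixed by it. Svs6, for example, measured 539 ± 33.3 RPKM in the control libraries and 1.16 ± 1.35 RPKM in those labelled Arid1a KO (SD, n = 3). RNA of these seminal vesicle markers was thus low in the same libraries as the 9 secretory product genes. Whether that RNA came from the seminal vesicle or from prostate cells was not tested, nor was its part in the members' values.

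Other genes listed as secretory products of the prostate, 12 in number without the 9, were compared by limma across all genes. Of the 11 that passed the filter, 10 were lower (1 of them, Wfdc3, passed only through the control libraries), 0 were higher and 1 was not called. Over all tested genes 29.6% were lower and 27.5% higher. The list's median was -2.21 on the log2 scale, beside -0.03 over all tested genes. The largest falls were those of Spinkl (-6.24 ± 0.27, SE), Spink1 (-4.90 ± 0.64), Wfdc15b, a whey acidic protein family member (-3.46 ± 0.29), and 9530053A07Rik (-3.10 ± 0.35), with limma adjusted p-values of 7.4e-06, 0.000577, 8.97e-05 and 0.000295. Npc2, a cholesterol-binding protein of most cells as well as of seminal fluid, did not pass at 128 ± 2.99 against 116 ± 7.70 RPKM (SD, n = 3), and was called higher when all libraries were scaled to the same sum. The list was written with earlier results of these data known and is not independent of them. Its name does not settle the gland of origin, which was not tested. Wfdc15b measured 5.12, 1.59 and 2.06 RPKM in libraries A, B and C labelled Arid1a KO. It was highest in library A, as were Spinkl and the seminal vesicle genes. Of the 11, 4 were highest in library A, 6 in library C and 1 in library B.

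Androgen response genes moved in both directions. Of 21 tested by limma, 12 were lower and 3 higher, beside 29.6% lower and 27.5% higher over all tested genes. The list's median was -0.34. Hoxb13, a homeobox factor of the posterior body and prostate, measured 60.3, 71.7 and 63.7 RPKM in the control libraries and 14.9, 14.7 and 24.9 RPKM in those labelled Arid1a KO, which lay below every control library. It fell by 1.83 ± 0.19 (SE) on the log2 scale (limma adjusted p = 0.00021). Klk1, a kallikrein protease, fell by 1.78 and Homer2, a scaffold protein, by 0.73 on that scale. Scaled to the same sum, the list had 10 lower and 7 higher calls.

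Genes of the secretory pathway, which fold and carry such proteins, were also divided. Of 24 tested, 12 were lower and 3 higher, beside 29.6% lower and 27.5% higher over all tested genes. The list's median was -0.23. The largest falls were those of Agr2, a disulfide isomerase of secretory epithelia, from 83.8 ± 4.43 to 14.6 ± 4.07 RPKM, and of Spdef, a transcription factor of secretory cells, from 14.2 ± 0.92 to 3.08 ± 0.64 RPKM (SD, n = 3). Creb3l4, an endoplasmic reticulum transcription factor of the prostate, fell by 1.40 and Tmed3, a cargo adaptor, by 1.13 on the log2 scale. The 4 limma adjusted p-values lay between 2.92e-05 and 7.67e-05. Scaled to the same sum, the list had 9 lower and 6 higher calls.

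The markers of luminal cells, after which the set is named, changed in part. Of 6, 4 were lower, beside 29.6% of all tested genes, namely Cldn3 (-1.14), Cd24a (-0.95), Epcam (-0.59) and Krt18 (-0.37). The median of all 6 was -0.48, and all 6 together summed to between 2570 and 3070 RPKM in the control libraries and between 2030 and 2206 RPKM in those labelled Arid1a KO. The call of Krt18 was lost under quantile normalization and under scaling to the same sum. Krt8 measured 875 ± 9.05 against 859 ± 108 RPKM (SD, n = 3) and did not pass. Of 6 basal markers, 2 were called higher, the keratins Krt14 (2.45) and Krt5 (1.34), beside 27.5% of all tested genes. The other 4 were not called: Krt17 (0.35), Krt15 (-0.37), Trp63 (-0.24) and Col17a1 (-0.06). All 5 B and plasma cell markers were called higher, in cells sorted against CD45. They summed to between 141 and 156 RPKM in the control libraries and between 461 and 807 RPKM in those labelled Arid1a KO. The part of any of these in the members' levels was not tested.

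**Figure D3:**
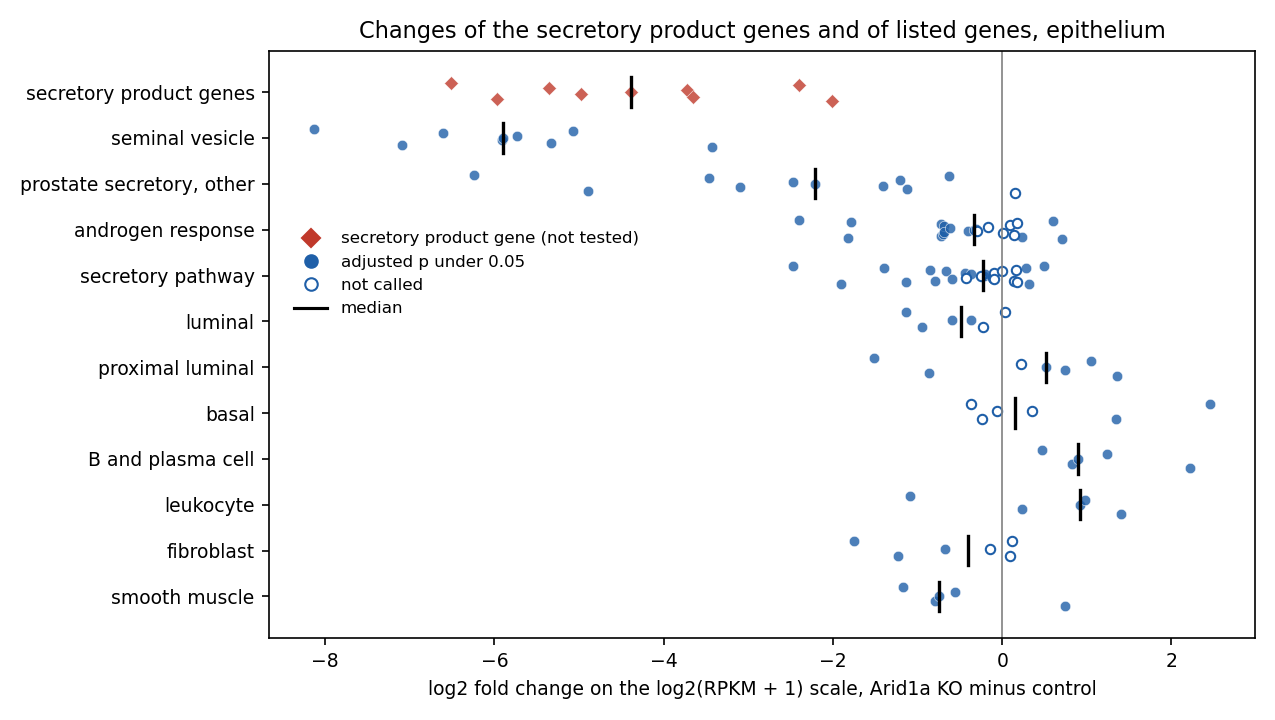
Log2 fold change (Arid1a KO minus control, on the log2(RPKM + 1) scale) of the 9 secretory product genes (red diamonds, not tested) and of the tested genes of 11 lists (blue circles, filled where the limma adjusted p-value is under 0.05), with the median of each list as a black bar. The medians are -4.39 for the 9 genes, -5.90 for the seminal vesicle list, -2.21 for the other prostate secretory genes and -0.48 for the luminal markers.

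Relatives of the members in the same gene families did not move alike. Among the transglutaminases, the 3 others tested were called higher, beside 27.5% of all tested genes, whereas Tgm4 was lower. Tgm1, which cross-links the cornified envelope of squamous epithelia, rose from 2.40, 1.69 and 2.26 RPKM to 11.1, 12.0 and 8.78 RPKM (log2 fold change 1.90 ± 0.13 SE, limma adjusted p = 4.74e-05). Tgm2, the broadly expressed tissue transglutaminase, rose from 166, 152 and 160 RPKM to 390, 373 and 314 RPKM and Tgm5, an epidermal enzyme, from 0.884 ± 0.162 to 2.94 ± 0.60 RPKM (SD, n = 3). These directions held under each scaling tried.

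Few other beta-defensins were detected. Of the 41 others in the table only 5 passed the filter, and all 5 were lower, beside 29.6% of all tested genes. However, 3 of them (Defb13, Defb15 and Defb2) passed only through the control libraries and could hardly have been called higher. Of the other 2, Defb42 fell from 45.9, 53.3 and 55.3 RPKM to 1.82, 0.875 and 0.735 RPKM (log2 fold change -4.64 ± 0.18 SE, limma adjusted p = 4.87e-06), and Defb1 from 64.1, 75.7 and 78.3 RPKM to 3.26, 3.04 and 7.24 RPKM (-3.81 ± 0.26, 3.84e-05). Defb13 fell by 1.48, Defb15 by 1.40 and Defb2 by 1.04 on the log2 scale from control means under 2 RPKM, and Defb13 was listed at 0 in all 3 libraries labelled Arid1a KO.

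In the other families few genes were tested. Lcn2, a lipocalin related to probasin that binds bacterial siderophores, fell from 266 ± 32.4 to 134 ± 13.4 RPKM (SD, n = 3). Crispld2, a secreted protein with a CRISP domain, fell from 39.7 ± 8.14 to 15.1 ± 0.66 RPKM. In the CEACAM family, Ceacam1, an adhesion molecule of epithelia and leukocytes, measured 180 ± 43.1 against 225 ± 23.0 RPKM and did not pass. Ceacam16 rose by 0.58 on the log2 scale from under 1 RPKM, and Ceacam2, with an Arid1a KO mean under the filter, passed as lower (-0.28, limma adjusted p = 0.0443) but lost its call under most alternatives.

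**Figure D4:**
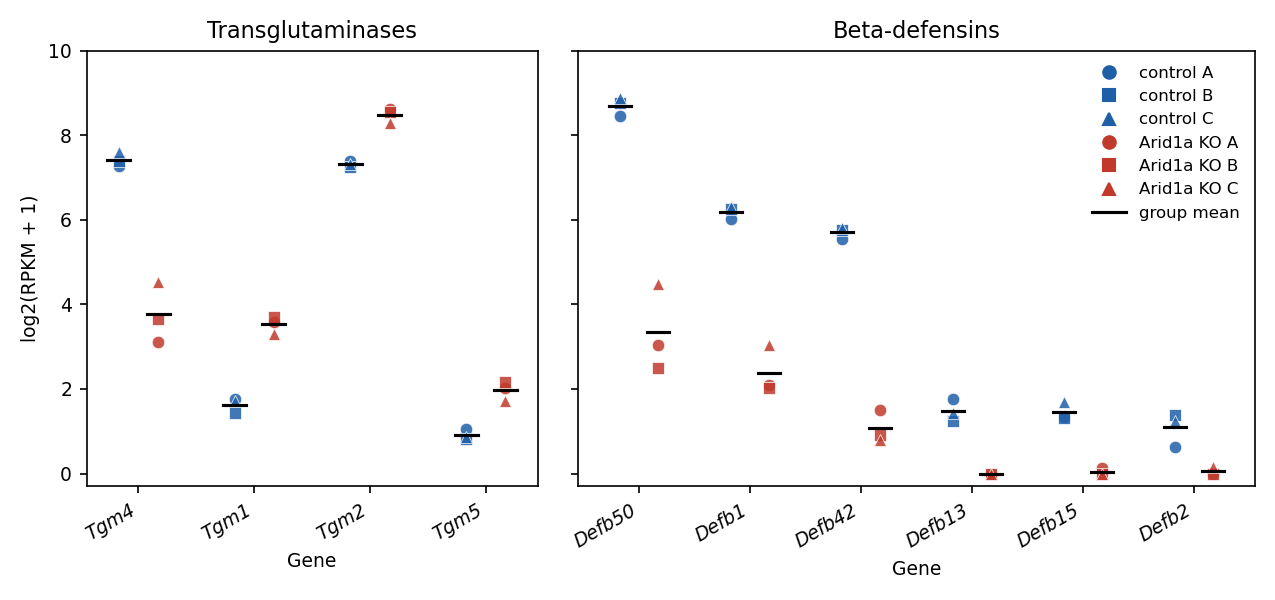
Log2(RPKM + 1) in each epithelium library for Tgm4 and 3 related transglutaminases (left) and for Defb50 and 5 related beta-defensins (right), with control libraries in blue, those labelled Arid1a KO in red, and group means as black bars. Tgm4 lies lower in the Arid1a KO libraries while Tgm1, Tgm2 and Tgm5 lie higher, and all 6 beta-defensins lie lower.

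Position on the chromosome was not used to choose the genes, so their neighbours were tested. Within 200 kb of the 9 genes, 63 other genes passed the filter, of which 22 were higher and 23 lower. Over all tested genes 27.5% were higher and 29.6% lower, and the neighbours' median change was -0.02 on the log2 scale. The neighbours of Defb50 were all lower (4 of 4), and all 4 are beta-defensins counted above. Of these, only Defb1 had a mean above the filter in the Arid1a KO libraries as well, so the count rests mainly on genes detected in the control libraries alone. Near Sbp, 6 of 11 were higher and 4 lower. One of the latter was Sbpl, a close copy of Sbp with which it may share reads, which fell from 56.5, 38.5 and 51.6 RPKM to 0.0375, 0.268 and 1.51 RPKM (-5.05 ± 0.31 SE, limma adjusted p = 2.88e-05). Near 9530002B09Rik, Gm12873 fell from 26.1 ± 5.18 to 0.529 ± 0.248 RPKM (SD, n = 3, log2 fold change -4.14 ± 0.17 SE), while the 2 others tested there were higher. Around Ceacam10, 6 of 11 neighbours were higher and 2 lower, and around Azgp1 3 of 14 were higher and 5 lower. No neighbour of Crisp1 passed the filter.

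The genes most like the set were sought by the Euclidean distance between centred log2(RPKM + 1) profiles over the 6 epithelium libraries. The 5 nearest to the members' mean profile were Defb1 (distance 0.672, Pearson r 0.998), Gm12873 (0.819, 0.989), Tesc (0.870, 0.992), Sbpl (0.998, 0.997) and A630095E13Rik (1.08, 0.983). Tesc encodes tescalcin, a calcium-binding protein. The 5 nearest to Pbsn alone were Sbpl (0.638), Sval1 (0.943), Tff3 (1.23), Gm15772 (1.27) and Gm12873 (1.30), of which Tff3, a mucosal trefoil peptide, had a control mean of 461 ± 105 RPKM and an Arid1a KO mean of 6.74 ± 2.51 RPKM (SD, n = 3). With 6 libraries in 2 groups that lie far apart, any gene with a large fall of similar size has a high r, so these are descriptions of likeness and carry no p-value. With a pseudocount of 0.1 in place of 1, 1 of the 5 genes nearest to the mean and 2 of the 5 nearest to Pbsn stayed on the list.

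Myc-CaP cells gave almost no signal for these genes. Of the 9, 7 were listed at 0 TPM in all 4 libraries, namely Pbsn, Sbp, Msmb, Defb50, Azgp1, Crisp1 and 9530002B09Rik, so no fold can be given for them. Tgm4 measured 6.15 and 7.03 TPM with EV and 8.18 and 7.40 TPM in the libraries labelled Arid1a KO, which lay above both EV libraries, a log2 fold change of 0.21 ± 0.12 (SE). Ceacam10 measured 0.734 and 0.596 TPM with EV and 0.557 and 0.605 TPM in the knockout, with overlapping groups. The other prostate secretory genes were also scarce, since 4 of 12 were listed at 0 in every library and 4 passed the filter.

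Of the 6 luminal markers, 3 passed the filter in Myc-CaP cells. Cldn3 (697 to 860 TPM) and Cd24a (127 to 216 TPM) were abundant, while Krt18 and Cdh1 stayed under 1 TPM in all 4 libraries. Epcam was listed at 0 in 3 of the 4 libraries and at 0.128 TPM in Arid1a KO library 2. Krt8 measured 1.07 and 0.790 TPM with EV and 40.3 and 38.8 TPM in the knockout.

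In Myc-CaP cells 6.43% of the 13974 tested genes were called, 4.54% higher and 1.89% lower. Among the other prostate secretory genes 1 of 4 was called, Apof, an apolipoprotein, which rose from 2.48 and 1.68 TPM to 25.3 and 25.2 TPM (3.10 ± 0.15 SE, limma adjusted p = 0.0022). Of 14 androgen response genes tested, 4 were higher and 1 lower. Steap4, a metalloreductase, rose by 1.06 and Slc45a3, a solute carrier of the prostate, fell by 0.77 on the log2 scale. Of 21 secretory pathway genes, 0 were higher and 2 lower, the chaperone Calr (-0.42) and the chaperone cofactor Sdf2l1 (-0.48). Tgm2 was lower (-0.45), Lcn2 was lower (-1.58 ± 0.06 SE, 32.9 ± 0.14 against 100.2 ± 1.05 TPM, SD, n = 2) and Crispld2 was higher (1.87 ± 0.05 SE, 362 ± 6.65 against 98.6 ± 2.62 TPM). With 2 libraries a group, all calls of the androgen response and secretory pathway lists were lost when any single library was left out, as was that of Tgm2. The call of Apof was lost without Arid1a KO library 1, with the fold change still at 3.10.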

How the data were processed

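The study sequenced RNA as paired-end reads, aligned them to GRCm38 with TopHat2 and counted them by strand with HTSeq-count, whereas the submitters' processing notes name HISAT2, HTSeq, DESeq2 and mm10. The authors deposited the epithelium libraries as RPKM and the Myc-CaP libraries as TPM, and the gene lengths behind them are not given in the sources used here. Count models were not applied to these normalized values. Depth, read from the steps between low RPKM values, was about 28800000 to 36300000 reads per epithelium library. Only 17.4% to 20.4% of low values came out whole within 0.02 of a read, so reads per gene are approximate and no counting intervals are given. TPM keeps no absolute depth.

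Each table was fitted alone with limma 3.58.1 (trended eBayes, R 4.3.3) on log2(value + 1), for genes with a mean of at least 0.5. P-values are two-sided, adjusted by Benjamini-Hochberg over all genes tested, and called under 0.05. The smallest p that an exact permutation test of 3 libraries against 3 allows is 0.1. The labels do not say that libraries of a group came from separate animals or cultures, although the methods give 3 mice per genotype, so p-values measure the spread between libraries. In simulated data with 200 changed genes, the epithelium fit on 16275 genes recovered 181 and the Myc-CaP fit on 13974 genes recovered 150. They also called 8 and 7 unchanged genes. The changed genes were drawn from the better expressed ones, and in the epithelium 9294 genes were called in the real data. The recovery therefore does not carry over to these data.

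The members, gene lists and families were chosen with earlier results of these data known. Of each list or family the called genes were named, up to the 4 with the largest change, together with the 9 members, the 5 genes nearest in profile, and Arid1a. The results of some genes that the rule would name are not reported here, while each list was counted in full. Further genes (Npc2, Krt8, Ceacam1, Defb2, Zdhhc3, Sbpl, Gm12873) were named after their values were seen. GENCODE M21 (GRCm38) supplied the annotation, with 62.3% of rows matched by name, and promoters came from RefSeq. Figures were drawn with matplotlib.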

Additional observations from a re-analysis of the deposited data

Results flagged for a closer look

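Tgm4 was the only member whose groups lay apart in opposite directions in the 2 systems, lower in every epithelium library labelled Arid1a KO (log2 fold change -3.66) and higher in both Myc-CaP libraries (0.21). Among the listed genes named by size, the same held for the 10 others given here. Those lower in the epithelium and higher in Myc-CaP cells were Apof (-2.21 and 3.10), Hoxb13 (-1.83 and 0.41), Steap4 (-0.72 and 1.06), Tmed3 (-1.13 and 0.36), Cldn3 (-1.14 and 0.24), Ppp1r1b (-1.51 and 0.26), Wfdc2 (-0.87 and 0.81), Krt15 (-0.37 and 1.46) and Crispld2 (-1.32 and 1.87). Tgm2 was higher in the epithelium (1.16) and lower in Myc-CaP cells (-0.45). The difference between the systems was not tested, because the tables were normalized separately. Only Apof, Steap4, Crispld2 and Tgm2 were called within each system, and Tgm4, as a member, was not tested. Wfdc2 and Krt15 passed the Myc-CaP filter only through the knockout libraries, with EV means of 0.263 and 0.137 TPM. Their direction there was largely fixed by the filter. With 3 or 2 libraries in a group, no single library was tested as standing apart.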

How the results depend on the processing

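The members kept their direction in the epithelium under each alternative in which they were fitted, and Crisp1 was below the filter and not fitted with a minimum mean of 5. The median log2 fold change of the set was -4.39, moved to -5.17 with a pseudocount of 0.1, and ran from -4.84 to -3.99 with each library left out in turn. Over the 116 member values under alternatives, 111 moved by less than the spread between replicates and 5 moved by more, all under the pseudocount of 0.1.

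The count of called epithelium genes was 9294 of 16275. It was 5872 of 9027 with a minimum mean of 5, 9323 after scaling to the same sum, 8823 with a replicate block, and 7768 to 8819 with a library left out. The median change of all genes was -0.03 and moved to 0.11 after scaling to the same sum, where 64.9% of calls were higher against 48.1%, and with the secretory genes left out of that sum 58.1% were higher. The same letter did not pair the libraries (correlations of deviations 0.04, 0.01 and -0.06).

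In Myc-CaP cells the count was 899 of 13974, 358 with no filter on low values, 2771 with the replicate block and 47 to 76 with a library left out. Of these calls 70.6% were higher in the fit reported, 79.3% with no filter, 52.4% with the replicate block and 78.7% to 87.1% with a library left out. There the same number gave a correlation of 0.19 over 2 pairs only. The cause of these shifts was not tested. No protein features were computed.

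Within 100 kb in place of 200 kb of the members, 7 of 26 neighbours were higher and 13 lower, beside 27.5% and 29.6% of all tested genes.

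The lowest Arid1a KO values of Sbp, Msmb and Crisp1 correspond to about 1.75 to 3.14 reads, so the sizes of those changes are less certain than their direction, and values listed at 0 are not shown to be absent.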

Other observations

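Among the marker lists not described above, the proximal luminal genes of the epithelium had 4 higher and 2 lower calls of 7 tested (Ly6d 1.35, Krt4 1.05, Ppp1r1b -1.51 and Wfdc2 -0.87 on the log2 scale). Leukocyte genes had 4 higher and 1 lower of 5, neutrophil genes 2 higher of 5, and endothelial genes 1 higher of 4. Although the cells were sorted against CD45, the 5 leukocyte genes together gave RNA in every epithelium library, controls included. They summed to between 712 and 746 RPKM in the control libraries and between 798 and 859 RPKM in those labelled Arid1a KO. Over all tested genes of the epithelium, 27.5% were called higher and 29.6% lower. Fibroblast genes had 3 lower of 6, led by Dcn (-1.75), and smooth muscle genes 4 lower and 1 higher of 5. The 6 fibroblast genes were abundant in the sorted epithelium. They summed to between 1683 and 2456 RPKM in the control libraries and between 1401 and 1971 RPKM in those labelled Arid1a KO. The part of this RNA in the members' levels was not tested. Urothelium genes had 2 higher and 3 lower of 5. The 3 neuroendocrine genes were lower, Syp (-1.19), Chga (-1.01) and Chgb (-1.04), of which Chgb passed the filter only through the control libraries. The calls are from limma with Benjamini-Hochberg adjustment over all genes.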
